A study of Homo sapiens with 6 samples.

Results

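The 10 genes followed here are reported elsewhere as targets of the microRNA miR-205, and their RNA was measured in prostate epithelial cells in which that microRNA was silenced. They are ERBB3, VEGFA, MED1, INPPL1, E2F5, BCL2L2, YES1, LYN, SRC and SMAD4, and every array probe annotated to one of them was taken, which gave 16 probes for 10 of the 18852 genes named on the array. A probe counted as detected where 3 or more of the 6 arrays gave it a detection p, against their negative controls, below 0.01. Of the 16 probes, 11 were detected, on all 6 arrays in each case, and each of the 10 genes had at least 1 of them. The whole array had 13423 detected probes.

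The cells were RWPE-1, an immortalised, non-tumorigenic line of human prostate epithelium, in 2 groups. LNA-205 cells (replicates D, E and F) received 100 nM of an antisense oligonucleotide with locked nucleic acid bases, which bind tightly, directed against miR-205, and LNA-Scr cells (replicates A, B and C) received 100 nM of a scrambled oligomer. RNA was taken 72 h later and each sample was read on 1 single-colour Illumina bead array. The replicates are transfections of 1 cell line, so p-values measure the spread between transfections and not between donors.

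MicroRNAs guide Argonaute proteins to messenger RNAs by pairing their seed, bases 2 to 8, mostly with sites in the 3′ untranslated region, and paired messages are translated less and often decay faster. Silencing a microRNA is therefore expected to raise its direct targets, although an effect on translation alone leaves the RNA level as it was. miR-205 is known for its high level in basal epithelial cells, and the genes reported as its targets include receptors, kinases and transcription regulators.

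The mature strand that the oligomer is directed against and its hairpin are shown because the seed is the part that pairs with target messages. Both come from RefSeq on GRCh38.p14. The mature strand lies at chr1:209432166-209432187 on the plus strand and the hairpin at chr1:209432133-209432242, inside the long noncoding host gene MIR205HG. Capitals mark the seed in the mature strands and miR-205-5p in the hairpin.
miR-205-5p: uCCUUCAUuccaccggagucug
miR-205-3p: gAUUUCAGuggagugaaguuc
MIR205 hairpin: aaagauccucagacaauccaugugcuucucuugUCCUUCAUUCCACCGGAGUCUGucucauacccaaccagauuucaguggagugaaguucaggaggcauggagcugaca
A message pairs with the full seed of miR-205-5p where it carries AUGAAGG. Among 2370 mature human microRNAs in the RefSeq table, miR-205-5p was the 1 with this seed. The 3′ untranslated regions of the 10 genes were not analysed here.

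The arrays do not read mature microRNAs, so silencing was not checked by these data. The probe for the host gene MIR205HG was above background on 0 of the 6 arrays (lowest detection p 0.0474). Between 12585 and 14195 probes were above background on an array, and median intensities lay between 217 and 226.5. Of 8 basal epithelial markers 6 were measured, KRT5, KRT14, ITGB4, LAMB3 and TRIM29 on all 6 arrays and KRT15 on 3. TRIM29 had the smallest p of them, with a log2 difference of 0.26 (LNA-205 minus LNA-Scr, limma adjusted p = 0.784). KRT5, KRT14 and ITGB4 differed by 0.12, 0.03 and 0.03, and LAMB3 and KRT15 by −0.12 and −0.15. Second probes gave 0.21 for TRIM29 and −0.16 for ITGB4. With arrays centred on their medians in place of quantile normalization, 1 of the 6 was higher, against 17.3% of all detected probes. The groups did not overlap for TRIM29 and KRT5, 2 of the 6, beside 11.9% of all detected probes. Of 8 luminal markers 6 were annotated and 2 measured, the keratins KRT8 and KRT18. Both were detected on all 6 arrays, at 0.04 and −0.28 (0.05 from a second KRT18 probe), and 0 of 7 fibroblast markers passed the filter. Of 7 immune and endothelial markers, CD68 and CD14 were detected, with log2 differences of 0.20 and 0.31 (limma adjusted p = 0.812 and 0.818) and 0.01 from a second CD68 probe. The groups did not overlap for the brighter CD68 probe either. The part of these markers in the results was not tested. In such bulk samples, fewer cells of a type and less RNA per cell cannot be told apart.

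None of the reported targets passed the test. Levels are normalized log2 intensities, and each probe was tested with limma, with Benjamini-Hochberg adjustment over all 13423 detected probes. Of the 11 detected probes, 9 had higher and 2 had lower means in LNA-205. Centring arrays on their medians in place of quantile normalization left 4 higher, against 17.3% of all detected probes. With quantile normalization none of the 11 passed an adjusted p of 0.05 (0 of 11, limma adjusted p from 0.743 to 0.996). Over the whole array 0 probes, or 0%, passed, and 49.9% had a higher mean in LNA-205. At an unadjusted limma p under 0.05 there was 1 probe of the 11, for MED1, or 9.09%, against 834, or 6.21%, of all detected probes. The groups did not overlap for that same probe, again 9.09%, against 11.9% of all. The median log2 difference of the 11 probes was 0.10, against 0.00 for all detected probes, whose middle 50% lay between −0.11 and 0.11. It was 0.033 without LNA-205 replicate D, 0.036 without LNA-205 replicate E and −0.061 with arrays centred on their medians. Of the 9 probes with higher means, 3 differed by less than 0.05.

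**Figure D1:**
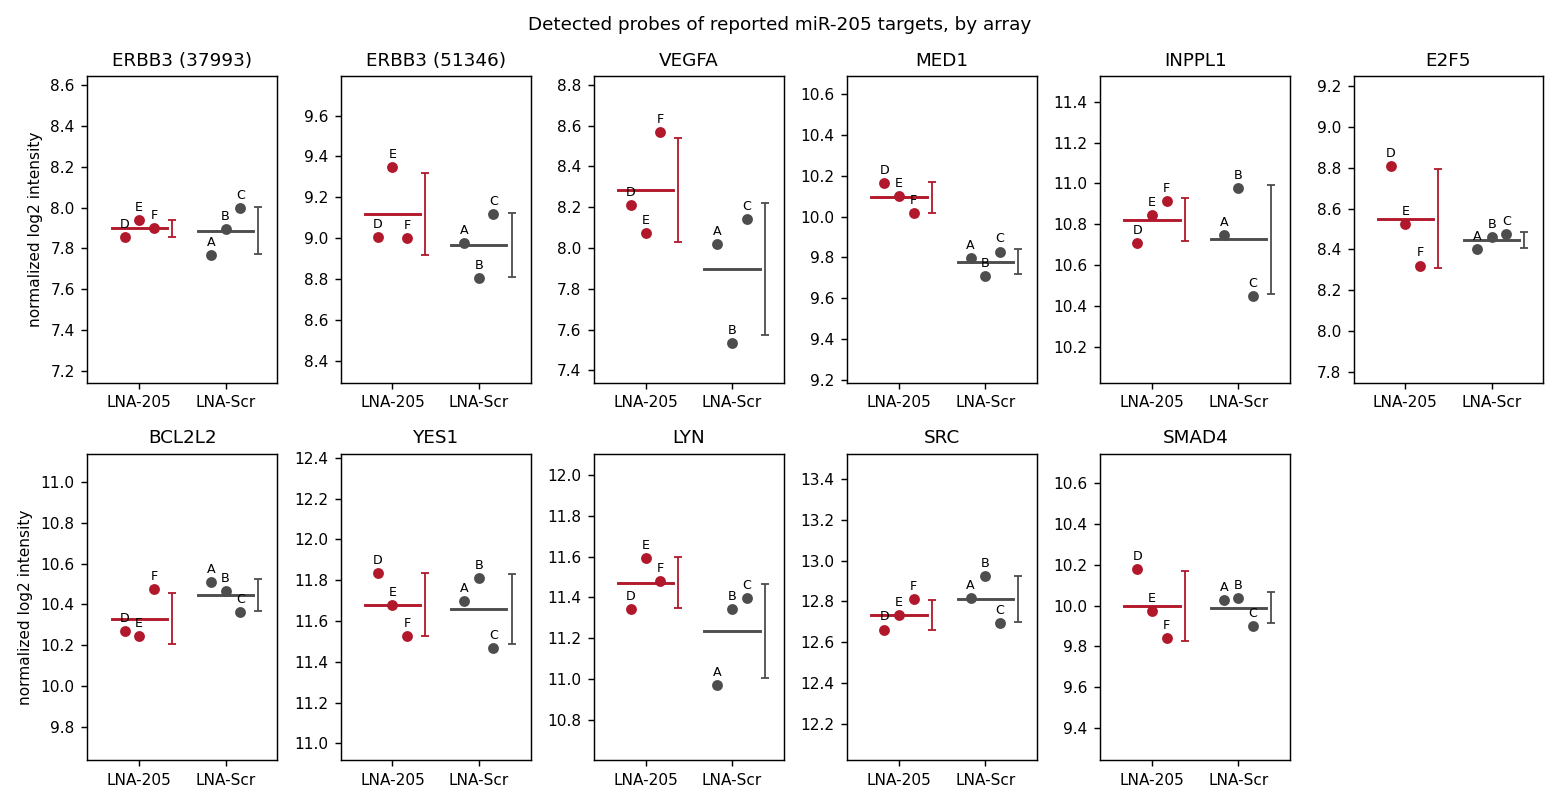
Normalized log2 intensity (vertical axis, a span of 1.5 in every panel) of the 11 detected probes on each LNA-205 array (D, E, F, red) and LNA-Scr array (A, B, C, grey), with group means as lines and ±1 SD as bars beside them (n = 3 each). MED1 is the panel in which all LNA-205 values lie above all LNA-Scr values. ERBB3 has 2 panels, told apart by the last digits of the probe name.

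Among the nuclear regulators, MED1 had the smallest p of the 10 genes. MED1 is a subunit of Mediator, the complex that links nuclear receptors and other transcription factors to RNA polymerase II. Its level was 10.16, 10.10 and 10.02 in LNA-205, against 9.80, 9.71 and 9.83 in LNA-Scr. Every LNA-205 array was above every LNA-Scr array, and the spread within each group was smaller than the gap. The means were 10.09 ± 0.07 in LNA-205 and 9.78 ± 0.06 in LNA-Scr (SD, n = 3 each), which is a log2 difference of 0.31 (SE 0.10, 95% interval 0.08 to 0.55), or 1.24-fold (1.06 to 1.46). The unadjusted limma p of 0.0149 was number 257 among the 13423 detected probes, and the adjusted p was 0.743. An exact two-sided permutation test over its 6 values reached p = 0.1, the minimum for 3 against 3 arrays. Before normalization the groups did overlap, with intensities of 1391, 1317.9 and 1119.5 in LNA-205 and 972.6, 1135.8 and 1062.3 in LNA-Scr. With any 1 array left out the log2 difference was between 0.28 and 0.35. With arrays centred on their medians it was 0.16, and the unadjusted limma p was 0.315.

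E2F5 and SMAD4 differed between groups by less than the spread of their LNA-205 replicates. E2F5 is a transcription factor that works with pocket proteins to restrain cell cycle genes, and its level was 8.81, 8.52 and 8.32 in LNA-205, against 8.40, 8.46 and 8.47 in LNA-Scr. The LNA-205 arrays spanned 0.49 and lay on both sides of the LNA-Scr arrays, which spanned 0.07. The log2 difference was 0.11 (SE 0.14, 95% interval −0.21 to 0.42, limma adjusted p = 0.930), and leaving out LNA-205 replicate D gave −0.022. SMAD4, the shared partner of the receptor-activated SMADs in TGF-beta and BMP signalling, was at 10.18, 9.98 and 9.84 in LNA-205, against 10.03, 10.04 and 9.90 in LNA-Scr. Here too the LNA-205 arrays enclosed the LNA-Scr arrays, with a log2 difference of 0.01 (SE 0.12, 95% interval −0.27 to 0.29, limma adjusted p = 0.996).

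VEGFA, the secreted ligand that drives growth of blood vessels, had the largest difference of the 11 detected probes and the widest error. Probe ILMN_2375879 read 8.21, 8.07 and 8.57 in LNA-205, against 8.02, 7.53 and 8.14 in LNA-Scr. The lowest value was that of LNA-Scr replicate B, and LNA-Scr replicate C was above LNA-205 replicate E, so the groups overlapped. The log2 difference was 0.39 (SE 0.19, 95% interval −0.06 to 0.83, limma adjusted p = 0.804), or 1.31-fold (0.962 to 1.77). Without LNA-Scr replicate B it was 0.20. The size also depended on the background correction, with 0.23 when none was made and 0.23 in the authors' processed values. The other VEGFA probes, 2 in number, did not pass the detection filter. ILMN_1803882 was detected on LNA-205 replicate F alone, with intensities of 281.4, 279.2 and 332.8 in LNA-205 and 266.9, 294 and 277.2 in LNA-Scr. ILMN_1693060 was detected on 0 arrays, between 172.4 and 198.2 in LNA-205 and between 184.7 and 196.6 in LNA-Scr. No fold is given for either.

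ERBB3, a receptor of the epidermal growth factor family that binds neuregulins and signals through its partners, had 2 detected probes. ILMN_1751346 read 9.00, 9.35 and 9.00 in LNA-205, against 8.97, 8.80 and 9.12 in LNA-Scr. LNA-205 replicate E stood above the rest, and the other arrays of both groups were mixed. The log2 difference was 0.15 (SE 0.14, 95% interval −0.17 to 0.48, limma adjusted p = 0.903), and leaving out LNA-205 replicate E gave 0.036. ILMN_1737993, annotated to another RefSeq transcript of the gene, read 7.854, 7.941 and 7.898 in LNA-205, against 7.767, 7.895 and 7.999 in LNA-Scr. Its LNA-205 values lay inside the LNA-Scr range, with a log2 difference of 0.01 (SE 0.11, 95% interval −0.24 to 0.26, limma adjusted p = 0.994). The remaining probe, ILMN_2397602, was detected on 0 arrays, with intensities between 238.9 and 273.6 in LNA-205 and between 211.5 and 253.4 in LNA-Scr.

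The 3 kinases of the SRC family, which pass signals from receptors and adhesions to the cytoskeleton, did not share a direction. LYN, best known in blood cells and also present in epithelia, was at 11.34, 11.59 and 11.48 in LNA-205, against 10.97, 11.34 and 11.40 in LNA-Scr. LNA-Scr replicate A was the lowest array, and the others overlapped. The log2 difference was 0.24 (SE 0.14, 95% interval −0.09 to 0.56, limma adjusted p = 0.835), and without LNA-Scr replicate A it was 0.10. YES1, a widely expressed member, was at 11.83, 11.68 and 11.53 in LNA-205, against 11.70, 11.81 and 11.47 in LNA-Scr. Both groups covered nearly the same range, with a log2 difference of 0.02 (SE 0.13, 95% interval −0.29 to 0.33, limma adjusted p = 0.992).

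SRC itself, the founding member, had the lower mean in LNA-205. Probe ILMN_1729987 read 12.66, 12.73 and 12.81 in LNA-205, against 12.82, 12.92 and 12.69 in LNA-Scr. The groups overlapped, and the log2 difference was −0.08 (SE 0.11, 95% interval −0.33 to 0.18, limma adjusted p = 0.935). Another 2 SRC probes were detected on 0 arrays. ILMN_1778253 had intensities of 350.3, 294.4 and 235.8 in LNA-205, against 211.8, 210.5 and 249.3 in LNA-Scr, with a lowest detection p of 0.0145 on LNA-205 replicate D. ILMN_1685898 had 236.6, 218.2 and 199.2 in LNA-205, against 191.6, 201.5 and 202.8 in LNA-Scr. Values this close to the negative controls carry no measured fold.

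INPPL1 and BCL2L2 complete the set. INPPL1 (SHIP2), the phosphatase that removes the 5-phosphate from the lipid messenger of PI3 kinase, was at 10.71, 10.84 and 10.92 in LNA-205, against 10.75, 10.98 and 10.45 in LNA-Scr. The LNA-205 arrays lay within the LNA-Scr range, and the log2 difference was 0.10 (SE 0.15, 95% interval −0.25 to 0.44, limma adjusted p = 0.943). Leaving out LNA-Scr replicate C gave −0.040. BCL2L2 (BCL-W), a survival protein of the BCL2 family, was at 10.27, 10.25 and 10.47 in LNA-205, against 10.51, 10.47 and 10.36 in LNA-Scr. LNA-205 replicates D and E were the lowest arrays and LNA-205 replicate F the second highest, with a log2 difference of −0.12 (SE 0.11, 95% interval −0.37 to 0.14, limma adjusted p = 0.907).

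**Figure D2:**
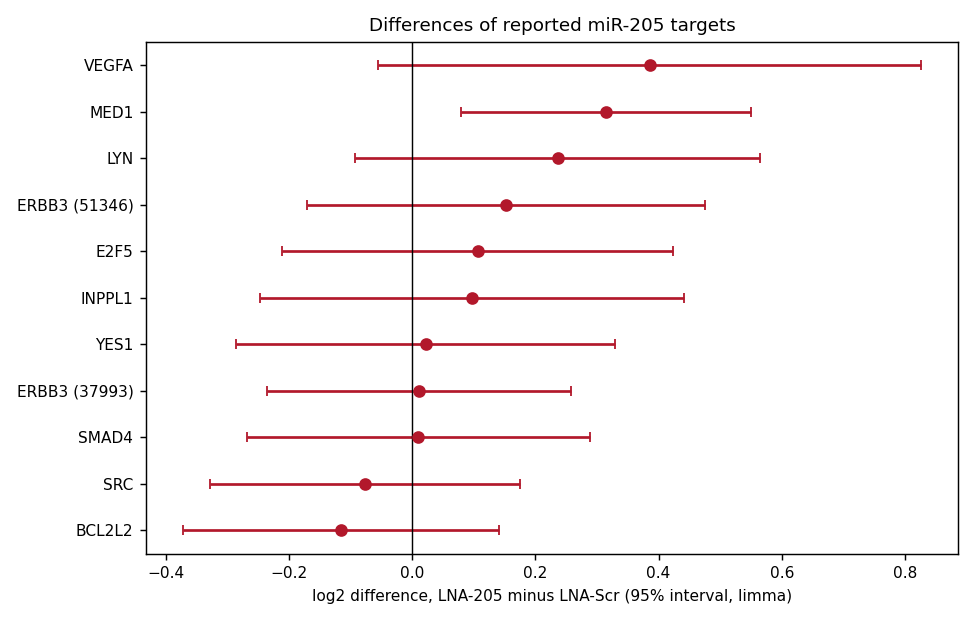
Log2 difference (LNA-205 minus LNA-Scr, horizontal axis) of the 11 detected probes with 95% intervals from limma (3 arrays per group), in order of size. The interval of MED1 lies above 0, and the other 10 include 0.

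The 95% intervals give the range of RNA differences that these arrays allow. They included 0 for 10 of the 11 probes. The upper bound was under 1.5-fold for 10 of the 11 probes and reached 1.77-fold for VEGFA. These bounds are not adjusted for the number of probes and hold for the normalization used. SEs of the 11 probes ran from 0.10 to 0.19 with a median of 0.13, against a median of 0.13 for all detected probes. Ranked from the most negative to the most positive difference, VEGFA and MED1 were at the 97.4 and 95.5 percentiles of all detected probes. For them 352 and 606 probes had larger positive differences. LYN was at the 91.4 percentile of this ranking, and BCL2L2 at the 23.5 percentile. By absolute size VEGFA, MED1, LYN and BCL2L2 were at the 94.9, 91.1, 82.7 and 53.1 percentiles.

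**Figure D3:**
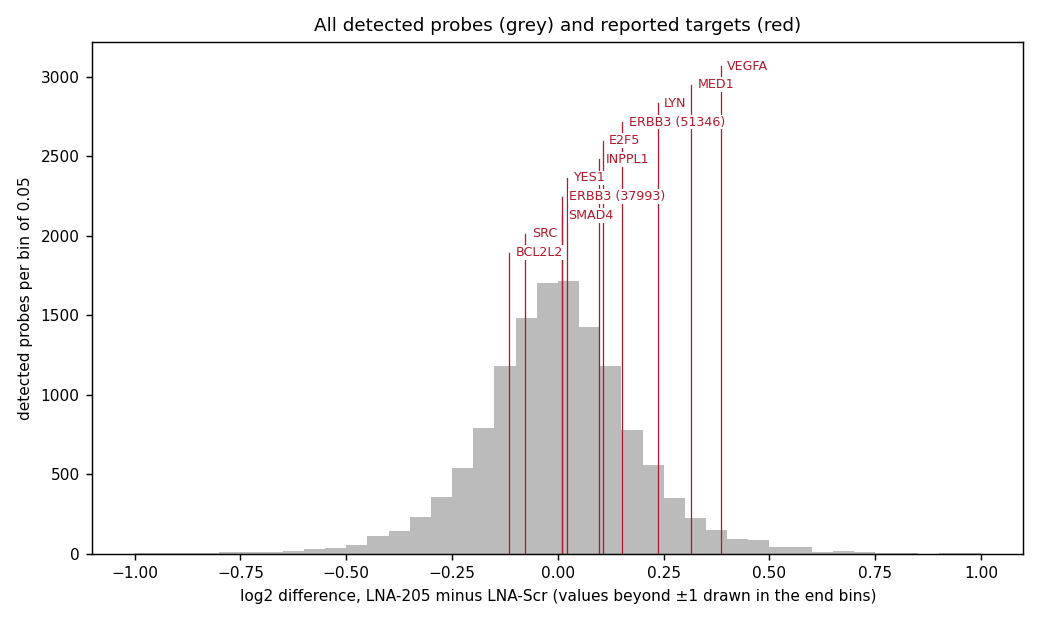
Number of detected probes (vertical axis) by log2 difference, LNA-205 minus LNA-Scr (horizontal axis, bins of 0.05), for all 13423 detected probes in grey, with the 11 probes of reported targets as red lines whose height has no meaning. The red lines run from −0.12 (BCL2L2) to 0.39 (VEGFA) and sit inside the grey distribution.

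The direction of the smaller differences depended on how arrays were scaled. Centring each array on its median in place of quantile normalization put the median of all detected probes at −0.16. It left 4 of the 11 probes above 0, against 17.3% of all detected probes, while 9 of the 11 were above the median of all. VEGFA was then at 0.24, and 0 of the 11 had an unadjusted limma p under 0.05, beside 1246 of all 13423 detected probes. The median of the 11 minus that of all detected probes was 0.10 with either scaling, but 0.034 without LNA-205 replicate D and 0.036 without LNA-205 replicate E. With LNA-205 replicate D or LNA-Scr replicate C left out, 6 of the 11 probes had the higher mean in LNA-205. VEGFA, MED1, LYN and ERBB3 probe ILMN_1751346 had positive values, and SRC and BCL2L2 negative ones, under all 14 alternatives. Changing the detection filter, taking the brightest probe or changing the variance model cannot alter the difference of a single probe. Agreement under those settings was therefore fixed in advance. Averaging detected probes altered ERBB3 alone, which was at 0.08 as a mean of its probes. With centred arrays ERBB3 probe ILMN_1751346 was at 0.002.

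**Figure D4:**
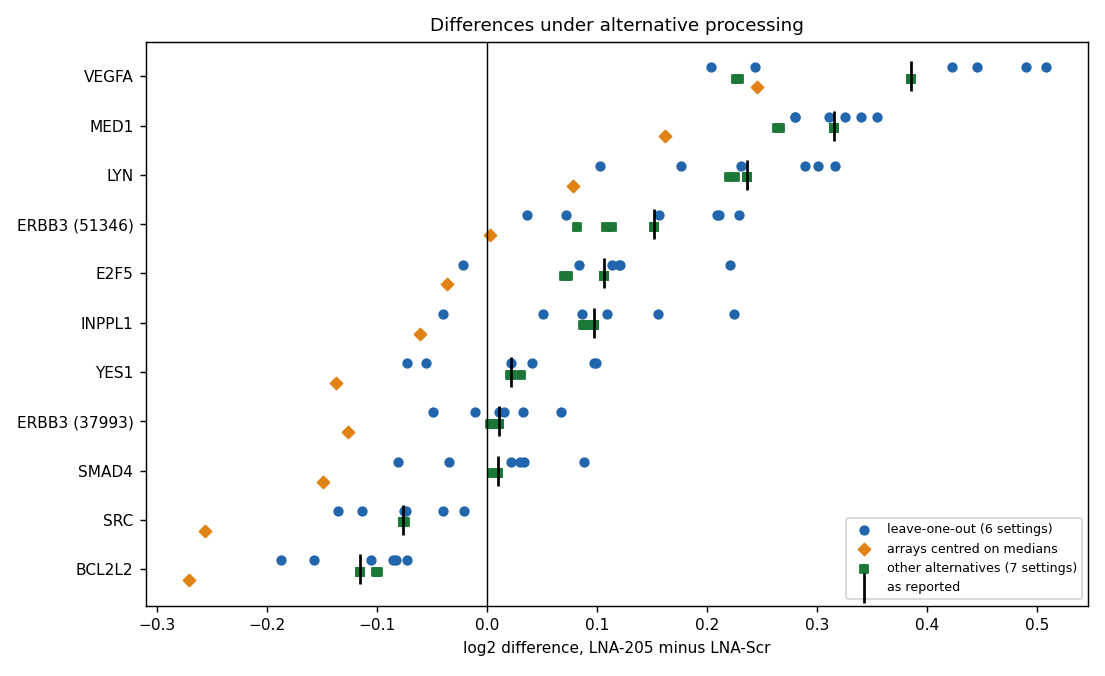
Log2 difference (LNA-205 minus LNA-Scr, horizontal axis) of each detected probe as reported (black tick), with 1 array left out (blue), with arrays centred on their medians (orange) and under the other alternatives (green). VEGFA ranges from 0.20 to 0.51 and MED1 from 0.16 to 0.35, while 5 probes have values on both sides of 0.

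From array to array, correlations between the 10 genes had both signs. For 1 probe per gene, the brightest, 21 of 45 pairs had a positive Pearson correlation over the 6 arrays, with a median of −0.07. YES1 and SMAD4 were most alike (r = 0.90, Spearman 0.94) and E2F5 and BCL2L2 least (r = −0.74, Spearman −0.89). All pairs share the same 6 arrays, so these values describe the arrays and were not tested. With quantile-normalized arrays the mean level of the 10 genes was 10.32, 10.31 and 10.30 in LNA-205, against 10.20, 10.21 and 10.18 in LNA-Scr, without overlap. VEGFA, MED1 and LYN, none past the test, had the largest differences in this mean, and SRC and BCL2L2 went the other way. No such mean was taken for other genes, and the separation was not tested.

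Other genes around the targets were read from lists, each gene by its brightest detected probe. The counts of higher and lower means below are for quantile-normalized arrays. With arrays centred on their medians 20 of the 98 genes in these lists were above 0, and 45 were above the median of all detected probes. A list of 20 further genes named as miR-205 targets was written from general knowledge and not checked against the literature. Of these, 6 were measured, 4 with higher and 2 with lower means in LNA-205 and 0 past the test, with a median of 0.13. HMGB3, a chromatin protein, had a log2 difference of 0.34 (SE 0.13, limma adjusted p = 0.772). The groups did not overlap for HMGB3, 1 of the 6, beside 11.9% of all detected probes in either direction. LAMC1, a laminin chain of basement membranes, differed by 0.22 and the RNA helicase DDX5 by 0.14. The 2 with lower means, ITGA5 and PHLPP2, differed by −0.23 and −0.15. ERBB receptors, ligands and adaptors had 10 measured genes, 4 higher and 6 lower, with 0 past the test and a median of −0.03. NRG1, a ligand of ERBB3, was at 10.29 ± 0.08 in LNA-205 and 10.68 ± 0.12 in LNA-Scr (SD, n = 3 each), which gives a log2 difference of −0.39 (SE 0.11, limma adjusted p = 0.743), but a second NRG1 probe gave −0.02. GRB7, an adaptor that binds ERBB receptors, differed by −0.36 and by −0.66 with a second probe (limma adjusted p = 0.772 for the first). SHC1 and ERRFI1, the brightest of the list, differed by −0.23 and 0.07, with −0.39 and 0.08 from the other SHC1 probes.

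Mediator genes other than MED1 were split. Of 21 measured genes, 10 had higher and 11 lower means in LNA-205, with 0 past the test and a median of −0.03. With an unadjusted limma p below 0.05 there were 4 of 21, each having a lower mean in LNA-205, against 5.94% of all genes and unnamed probes in either direction. MED26, a subunit linked with elongation, was at 7.67 ± 0.27 in LNA-205 and 8.29 ± 0.18 in LNA-Scr (SD, n = 3 each), which gives a log2 difference of −0.62 (SE 0.16, limma adjusted p = 0.704). MED23, of the tail module, differed by −0.50 (SE 0.12, limma adjusted p = 0.679) and by −0.24 with a second probe. CDK8, the kinase of the complex, differed by −0.46 and MED24 by −0.31, although a second MED24 probe gave −0.01. MED22, the brightest of the list, differed by −0.16 and by −0.33 with a second probe.

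The remaining lists also had 0 genes past the test. Among phosphoinositide and AKT genes, 4 of 11 had higher means in LNA-205, with INPP5D, the relative of INPPL1 known from blood cells, at 0.39 (SE 0.15, limma adjusted p = 0.789) and the kinase PDPK1 at 0.26 with its brightest probe and −0.10 with another. AKT1 differed by −0.03 and INPP4B by −0.17. For E2F and pocket protein genes 5 of 10 were higher, led by E2F2 and E2F7 at 0.20 each, while TFDP1 and E2F4 differed by −0.03 and 0.03. In the BCL2 family 4 of 10 were higher, among them the death effector BAK1 at 0.25, while BCL2A1 differed by −0.33. The abundant survival genes BCL2L1 and MCL1 differed by −0.12 and −0.01.

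SRC family relatives and regulators had 2 of 9 genes with higher means in LNA-205 and a median of −0.05. CBL, a ubiquitin ligase, differed by −0.32 (SE 0.18, limma adjusted p = 0.831) and CSK, the kinase that inhibits SRC, by −0.17 (SE 0.10, limma adjusted p = 0.835). PTPN1 and PTK2 differed by −0.11 and −0.05. In the SMAD pathway 7 of 10 were higher, with the inhibitory SMAD7 at 0.21, ID3 at 0.27, TGFBI at 0.08 and the receptor TGFBR2 at −0.22. Second probes gave 0.06 for SMAD7 and −0.04 for TGFBR2. VEGF ligands, receptors and hypoxia genes had 7 of 13 higher, with VEGFC at −0.29, EPAS1 at 0.22, and the hypoxia-responsive LDHA and PGK1 at 0.07 and 0.09 (−0.05 from a second PGK1 probe). Over these 9 lists, 9 of 98 genes (9.18%) had an unadjusted limma p under 0.05, against 5.94% of all genes and unnamed probes read the same way, and 46 of the 98 had higher means, against 49.8%.

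**Figure D5:**
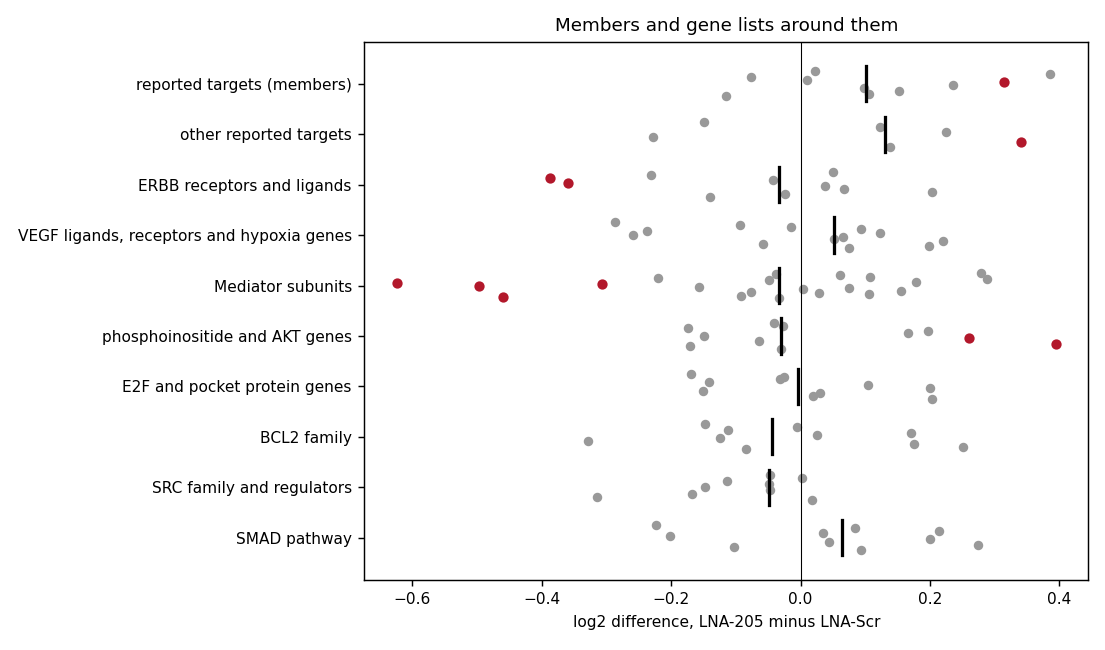
Log2 difference (LNA-205 minus LNA-Scr, horizontal axis) of every measured gene in the reported targets and 9 surrounding lists, 1 point per gene, with the list's median as a black line. Red points have an unadjusted limma p under 0.05, of which the Mediator list has 4, all below 0, and 0 points pass adjustment.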

How the data were processed

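The 6 arrays, 3 of LNA-205 and 3 of LNA-Scr, were grouped by their titles. The deposited values are unnormalized log2 intensities with a detection p-value per probe and array, per the file headers. The authors' processed log2 values served as an alternative; lumi is named in the submitters' processing notes, without a role or version, and the normalization method is not given here. Of 48803 probe rows 4 held no values. Background was corrected and arrays quantile normalized with neqc (offset 16) of limma 3.58.1 in R 4.3.3, with negative controls inferred from the detection p. Probes with a detection p under 0.01 on at least 3 arrays were kept, 13423 in all. This filter can drop weak transcripts, and the offset shrinks differences of dim probes. Genes were named from the platform annotation, in which 28095 probes had 1 symbol and 13 more than 1, while 20691 had no entry. For 28056 probes the symbol was updated through a RefSeq gene table of GRCh38.p14. Each detected probe was fitted with lmFit and eBayes, two-sided, with a threshold of 0.05. A log2 difference is LNA-205 minus LNA-Scr. The fit was tested on simulated data. The planted differences were larger than that of any detected probe of a reported target, so the simulation does not cover differences as small as theirs. The number of arrays limits the precision.

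The members and lists were chosen with earlier results of these data known. Named are all probes of the 10 genes and, from each list, the 2 genes with the smallest p and the 2 brightest. CDK8, ITGA5 and PHLPP2 were named after their values were seen. Alternatives changed the background correction, normalization, detection filter, probe summary and variance model, or left out 1 array.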

Additional observations from a re-analysis of the deposited data

How the results depend on the processing

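No probe of a reported target passed an adjusted p of 0.05 in limma under any of the 14 alternatives (0 in each). At an unadjusted limma p under 0.05 there was 1 of 11 as reported, MED1, beside 834 of all 13423 detected probes. With arrays centred on their medians it was 0 of 11, beside 1246 of 13423. Without the detection filter it was 2 of 16, beside 2576 of 48799. Without LNA-Scr replicate C it was 2 of 11, beside 921 of 13423. Over the whole array 0 probes passed as reported and with any 1 array left out (range 0 to 0). There was 1, for MCCC2, without background correction, with the authors' values, with arrays centred on medians, with probes detected on all 6 arrays and with 1 probe per gene. There were 4 with an intensity trend. The median log2 difference of the reported targets was 0.10, against −0.061 with centred arrays, 0.13 without the detection filter (16 probes) and 0.033 to 0.099 with 1 array left out. The detection filter, the choice of the brightest probe and the variance model cannot change the difference of a single probe. Of 152 single-probe values, which include those settings, 139 kept their sign and 13 reversed. With centred arrays, where the median of all detected probes was −0.16, these were ERBB3 probe ILMN_1737993 at −0.13, INPPL1 at −0.061, E2F5 at −0.036, YES1 at −0.14 and SMAD4 at −0.15. With 1 array left out, ERBB3 probe ILMN_1737993 ranged from −0.049 to 0.067, INPPL1 from −0.040 to 0.22, E2F5 from −0.022 to 0.22, YES1 from −0.073 to 0.099 and SMAD4 from −0.081 to 0.088. The cause was not tested. No paired analysis was possible because the replicate letters are not shared between the groups. Probes near the negative controls limit VEGFA, ERBB3 and SRC to the detected probes.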
